A study of Mus musculus with 16 samples.

Results

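The response of macrophages to SR9009 was compared between cells that did and did not receive lipopolysaccharide (LPS), as a double difference per gene: (SR9009 with LPS minus LPS) minus (SR9009 minus vehicle). The comparison used all 16 libraries of the series, 4 from each of 4 groups, and was repeated on 15 libraries, leaving out that of SR9009 in mouse 1, which stood apart. Bone marrow of 4 wild type male C57BL6 mice was grown into bone marrow-derived macrophages with L929 cell supernatant. The cells of each mouse were split over DMSO vehicle, SR9009 at 10 µM for 16 h, LPS at 100 ng/mL for 6 h, and SR9009 for 16 h followed by LPS for 6 h. The labels do not say whether the LPS group also had DMSO before LPS. Each library is 1 culture of 1 mouse, and the cultures are unsorted primary cells. RNA was selected by its polyA tail. The double difference has the same value when read the other way, as the LPS response with SR9009 minus the LPS response without it.

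SR9009 is a synthetic agonist of REV-ERB alpha and REV-ERB beta (Nr1d1 and Nr1d2), nuclear receptors of the circadian clock that repress their target genes, Arntl (Bmal1) among them. LPS is sensed by Toll-like receptor 4, which turns on NF-kB and AP-1 target genes and, through the adaptor TRIF, the production of interferon beta. Secreted interferon beta acts back on the cells through its receptor and a complex that holds STAT2 and IRF9 to raise the interferon-stimulated genes, and macrophages hold a low level of many of these genes even without a stimulus. The title of the series names fibrinolysis, the removal of clots by plasmin, as its subject; in macrophages it is set by the plasminogen activator urokinase (Plau), its receptor (Plaur) and inhibitors such as PAI-2 (Serpinb2).

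The interaction passed an adjusted p of 0.05 for 15 of 13438 genes tested with all 16 libraries (edgeR quasi-likelihood test with the mouse as a block, Benjamini-Hochberg adjustment): 11 genes were called higher (0.0819% of those tested) and 4 lower (0.0298%). A higher call means that the SR9009 effect was more positive, or less negative, with LPS. Before adjustment, 650 genes had a higher value with a p under 0.05 (4.84%) and 552 a lower one (4.11%). The SR9009 library of mouse 1 had the fewest counts (12616442 against up to 24214863 elsewhere) and 13298 genes detected against 16419 to 18947 in the other 15, and on the second principal component it lay at 75 against -16.2 to 20.9. Without it, 163 genes were called higher (1.19% of 13645) and 108 lower (0.791%), and all 15 genes called with 16 libraries were among these 271. The count also moved with other libraries. Leaving out the mouse 2, 3 or 4 DMSO library gave 4, 11 or 2 genes higher and 1, 2 or 0 lower, and leaving out the LPS library of mouse 1, 2, 3 or 4 gave 4, 2, 2 or 4 higher and 2, 0, 0 or 1 lower. Without the SR9009 library of mouse 2, 3 or 4 the counts were 2, 17 or 2 higher and 0, 3 or 0 lower, and without the library of SR9009 with LPS of mouse 1, 2, 3 or 4 they were 6, 6, 7 or 9 higher and 2, 1, 3 or 1 lower. With all 4 libraries of mouse 1 left out, 89 were higher and 77 lower, and with mouse 2, 3 or 4 left out edgeR called none (355, 413 or 389 higher and 298, 360 or 288 lower at an unadjusted p under 0.05). DESeq2 on the 16 libraries called 112 higher and 88 lower, and limma-voom 11 and 2. Scaling by relative log expression gave 8 higher and 1 lower, and a correction for gene length 11 higher and 11 lower. All 15 genes had the same sign in each of these fits and in each of the 4 mice.

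**Figure D1:**
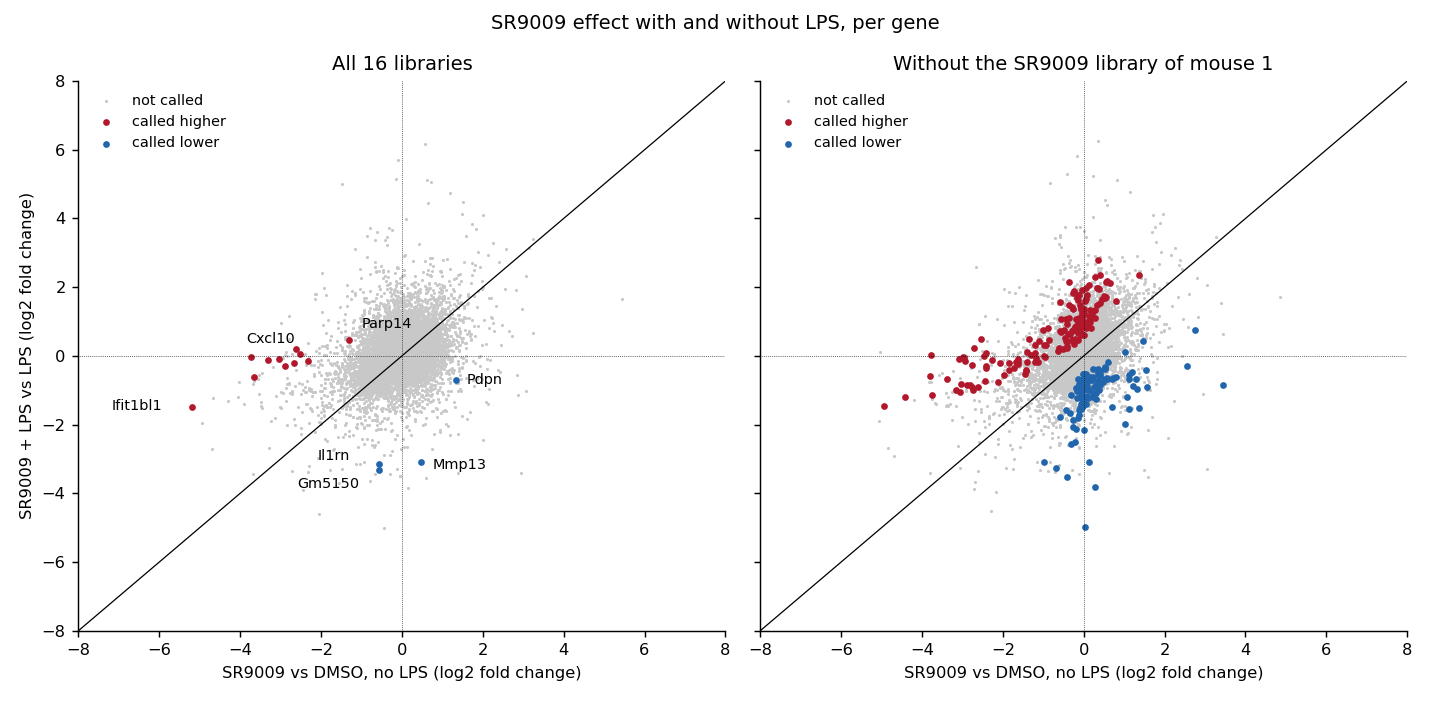
Each point is 1 tested gene, with the SR9009 effect without LPS (log2 fold change) on the x axis and with LPS on the y axis, for 16 libraries (left) and for 15 (right). The line marks equal effects; red genes, called higher, lie above it, mostly at negative x and near 0 on y in the left panel, and blue genes, called lower, lie below it.

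The 11 genes called higher formed 1 pattern: SR9009 lowered them in unstimulated macrophages and had little effect once LPS was present. The SR9009 effect without LPS ran from -5.18 to -1.30 on the log2 scale (median -2.90). With LPS it ran from -1.49, that of Ifit1bl1, to 0.47 (median -0.12). The genes were picked by the difference of these effects, so the effects describe the calls and are not a second test. LPS alone was 1.71 to 6.74 log2 units above DMSO for these genes. Of the 11, 8 are on the list of interferon-stimulated genes: Ifit1bl1, Ifit2, Ifit3, Ifit3b, Iigp1, Mx1, Gbp5 and Parp14. The other 3 are the chemokine gene Cxcl10, itself known as interferon-inducible, and Gm4951 and Gm12250, which the annotation marks as a predicted gene and a pseudogene. Absence from the list does not show that a gene lacks a response to interferon. Reads of near-identical or related genes (Ifit3 and Ifit3b, the Ifit1 group, Iigp1 with Gm4951 and Gm12250) may have been split between them in the counting. The values of such single genes are therefore uncertain.

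Cxcl10 (chromosome 5, 92494497 to 92496748, GRCm39), a chemokine that draws activated T cells, had the largest positive interaction. Its level in DMSO was 72.3, 128, 21.0 and 51.0 CPM (counts scaled to a common library size) in mice 1 to 4, and in SR9009 7.46, 9.65, 2.01 and 2.30 CPM. With LPS it was 7843, 6076, 2572 and 3717 CPM, and with SR9009 and LPS 10340, 8941, 2142 and 2180 CPM. The SR9009 libraries were thus all below the DMSO libraries, while the groups with LPS overlapped. The group means were 68.1 ± 45.2 CPM in DMSO, 5.35 ± 3.80 in SR9009, 5052 ± 2364 in LPS and 5900 ± 4355 in SR9009 with LPS (SD, n = 4). The SR9009 effect was -3.74 (SE 0.31) without LPS and -0.02 (SE 0.27) with it, an interaction of 3.72 (SE 0.40, edgeR adjusted p = 0.00706).

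Ifit3 (chromosome 19, 34560931 to 34566131), which encodes an antiviral protein of the IFIT complex, stood at 186, 261, 54.8 and 113 CPM in the DMSO libraries of mice 1 to 4. SR9009 libraries held 18.5, 22.2, 15.1 and 10.8 CPM. The LPS libraries held 2362, 1936, 971 and 1206 CPM, and those with SR9009 and LPS 2328, 2626, 871 and 767 CPM. As for Cxcl10, the groups without LPS did not overlap and those with LPS did, and the interaction was 2.95 (SE 0.38, edgeR adjusted p = 0.0141). Its neighbours on chromosome 19 were also called higher: Ifit2 had an interaction of 2.83 (adjusted p = 0.0145), Ifit3b 3.19 (adjusted p = 0.0446) and Ifit1bl1 3.70 (adjusted p = 0.016). For Ifit3b and Ifit1bl1 the groups without LPS did not overlap, whereas Ifit2 was lower with SR9009 within each mouse but reached 79.1 CPM in SR9009 against 75.5 CPM in the lowest DMSO library. Ifit1bl1 differed in that SR9009 also lay below its partner with LPS, at 166, 207, 70.3 and 62.0 CPM against 402, 545, 171 and 245 CPM with LPS alone, lower within each mouse though the ranges overlapped. Its SR9009 effect was -5.18 without LPS, where the SR9009 libraries held 0.07 to 0.51 CPM, and -1.49 with LPS.

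The GTPases of interferon defence followed. Iigp1, an immunity-related GTPase that attacks parasite vacuoles, went from 15.0, 18.5, 4.45 and 7.76 CPM in DMSO to 1.60, 0.77, 0.64 and 0.51 CPM in SR9009. With LPS it was 696, 507, 181 and 255 CPM, and with both agents 452, 371, 143 and 121 CPM. In each mouse the library with both agents was below the LPS library, but the ranges overlapped; the interaction was 3.04 (SE 0.35, edgeR adjusted p = 0.00784). Mx1, a dynamin-like antiviral GTPase, had an interaction of 2.60 (SE 0.35, adjusted p = 0.0145), with 25.7 to 103 CPM in DMSO, 5.49 to 10.4 in SR9009, 1026 to 2425 in LPS and 691 to 2353 with both. Gbp5, a guanylate-binding protein that acts on bacteria and inflammasomes, had an interaction of 2.46 (SE 0.40, adjusted p = 0.0459) and lay at 6.95 to 30.4, 0.71 to 5.51, 971 to 2519 and 749 to 2483 CPM in the same order. Parp14, an ADP-ribosyltransferase, had the smallest interaction of the 11, 1.77 (SE 0.29, adjusted p = 0.0459). It was the only one of these 4 whose library with both agents was above the LPS library in each mouse (1493 to 2685 against 1299 to 1760 CPM).

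**Figure D2:**
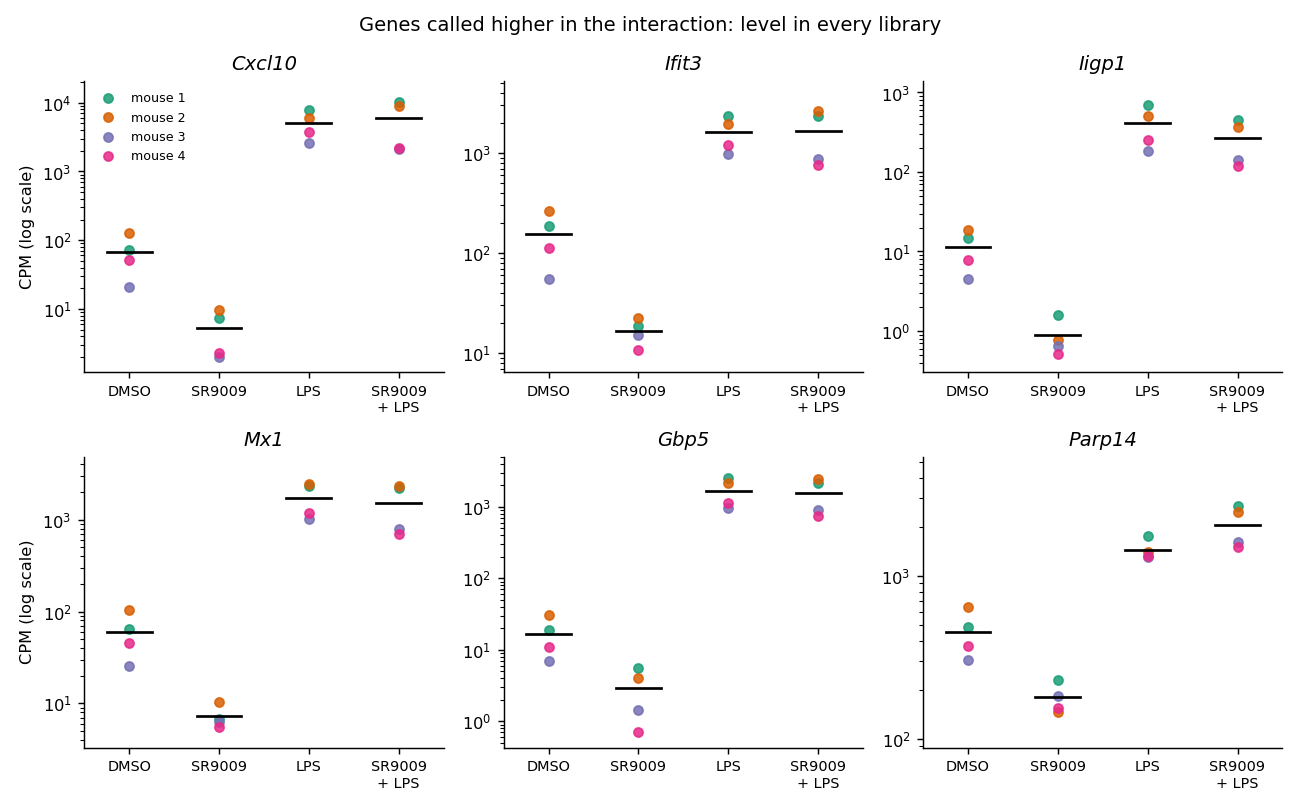
Level of 6 genes called higher, in CPM on a log axis, by group; each point is 1 library, coloured by mouse, and bars are means of 4. The SR9009 points lie below all DMSO points in each panel, and LPS and SR9009 + LPS overlap; Cxcl10 runs from 2.01 CPM in an SR9009 library to 10340 CPM in a library with both agents.

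Promoter sequence was examined because most of the higher genes are known interferon targets. RefSeq windows from 250 bases before to 50 after the start (GRCm38.p6, a different build from the GRCm39 of the counts) were found for 9827 of the 13643 symbols tested. The interferon-stimulated response element, searched on both strands as GAAANNGAA, was in 7.5% of the 12525 windows of all tested genes. Of the 11 genes called higher with 16 libraries, 7 had a window, and Gm4951, Iigp1, Mx1 and Parp14 had none. The element was in 7 of the 9 windows of those genes (77.8%) and in 2 of 6 windows of the genes called lower. Among genes called without the SR9009 library of mouse 1 it was in 20.7% of windows of the higher and 8.0% of the lower genes. Within the higher genes it was in 61.4% of the 44 windows of genes whose level with LPS alone was at least 1 log2 unit above DMSO, and in 5.7% of 105 windows of genes at least 1 log2 unit below; this split was chosen after the values were seen. Several of these genes are neighbours or near-copies, so the windows are not independent. The AP-1 site TGANTCA was in 5.3% of all windows, 10.9% of the higher and 8.0% of the lower set. The E-box CACGTG was in 10.0%, 8.7% and 8.0%, and the core AGGTCA, to which REV-ERB and ROR receptors bind, in 12.5%, 16.8% and 15.2%. The 250 bases upstream of the start are printed for the 2 named genes with the largest positive and the 2 with the largest negative interaction, 5′ to 3′ on the gene's strand, with matches to the interferon-stimulated response element, the kappaB site, the AP-1 site and the TATA box TATAAA in capitals.

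Cxcl10, chr5:92348890-92349139, minus strand, with 1 response element, 3 kappaB matches of which 2 overlap, and 1 AP-1 site:
Cxcl10: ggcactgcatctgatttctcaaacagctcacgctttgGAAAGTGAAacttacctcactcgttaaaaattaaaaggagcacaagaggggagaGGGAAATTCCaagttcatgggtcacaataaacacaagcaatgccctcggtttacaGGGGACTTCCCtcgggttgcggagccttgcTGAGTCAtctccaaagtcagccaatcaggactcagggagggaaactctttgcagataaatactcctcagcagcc
Ifit1bl1, chr19:34601969-34602218, minus strand, the more upstream of its 2 windows, with 2 response elements and 2 TATA boxes:
Ifit1bl1: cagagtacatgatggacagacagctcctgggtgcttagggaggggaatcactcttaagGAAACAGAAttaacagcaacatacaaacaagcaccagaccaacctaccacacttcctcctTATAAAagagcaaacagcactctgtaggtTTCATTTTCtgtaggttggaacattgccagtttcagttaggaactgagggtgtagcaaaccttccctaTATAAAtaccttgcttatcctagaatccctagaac
Mmp13, chr9:7272264-7272513, plus strand, with 2 overlapping response elements, 1 AP-1 site and 1 TATA box:
Mmp13: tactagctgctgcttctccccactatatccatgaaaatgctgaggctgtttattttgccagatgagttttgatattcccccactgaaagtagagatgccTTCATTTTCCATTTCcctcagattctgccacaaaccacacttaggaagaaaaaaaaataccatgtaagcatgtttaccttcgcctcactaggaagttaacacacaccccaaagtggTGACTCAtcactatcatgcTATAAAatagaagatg
Gm5150, chr3:16006333-16006582, minus strand, with 1 response element:
Gm5150: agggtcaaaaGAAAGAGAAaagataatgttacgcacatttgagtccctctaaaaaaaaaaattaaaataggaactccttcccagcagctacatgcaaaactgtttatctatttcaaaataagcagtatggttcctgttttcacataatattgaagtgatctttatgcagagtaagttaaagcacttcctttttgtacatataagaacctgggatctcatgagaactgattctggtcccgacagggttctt
A match is a description of letters; binding was not measured.

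Over the whole list of 49 interferon-stimulated genes, all tested, 8 were called higher and none lower with 16 libraries, against 0.0819% and 0.0298% of all genes; before adjustment, 35 higher and none lower had a p under 0.05. DESeq2 called 19 and limma-voom 8 of the 49 higher and none lower. The median interaction of the list was 1.29 (all tested genes 0.06), and 49 of 49 values were positive. The list's median SR9009 effect was -1.76 without LPS and -0.32 with LPS. Without the SR9009 library of mouse 1, 26 of 49 were called higher and none lower, with a median of 1.42 and 48 positive. Those added by that fit included Ifit1 (3.02, adjusted p = 0.0229), Mx2 (2.47), Ifi44 (2.20), Cmpk2 (2.06), Rsad2 (1.85), an antiviral radical enzyme, and Zbp1 (1.70, adjusted p = 0.035), a sensor of nucleic acids. The Trail gene Tnfsf10, a death ligand outside the list, missed the threshold with 16 libraries (2.89, edgeR adjusted p = 0.0619) and passed without that library (2.96, adjusted p = 0.0222). Not every member behaved so: Bst2 had 0.25 and -0.19, and Isg20 0.29 and 0.06, in the 2 fits, and neither passed. In both, the SR9009 effect was similar with LPS (-0.69 and -1.14) and without it (-0.95 and -1.43).

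The genes upstream of the response were looked up after the calls were known. Interferon beta itself (Ifnb1) had too few counts for the 16-library filter: no DMSO or SR9009 library was above 0.04 CPM, LPS libraries held 0.50, 0.84, 0 and 0.43 CPM, and libraries with both agents 0.88, 1.94, 0.11 and 0.47 CPM. In each mouse Ifnb1 was listed higher with both agents than with LPS alone, at levels of a few reads; the interaction in the 15-library fit was 3.53 (SE 1.64, edgeR adjusted p = 0.328). The receptor chains Ifnar1 (-0.43, adjusted p = 0.538) and Ifnar2 (-0.29, adjusted p = 0.782) did not pass edgeR's test with 16 libraries, nor did the LPS receptor Tlr4 (-0.19), the TRIF gene Ticam1 (-0.51) or the kinase gene Tbk1 (-0.48). With 15 libraries edgeR called none of these either (Ifnar1 -0.39, adjusted p = 0.177), but DESeq2 called Ifnar1 lower. Of the factors that carry the interferon signal, Stat2 (0.92, adjusted p = 0.092), Irf9 (0.69, adjusted p = 0.17) and Irf7 (0.58, adjusted p = 0.389) did not pass in the 15-library edgeR fit. Irf7 was lower with SR9009 under both conditions, at 15.8 to 72.4 CPM against 117 to 292 without LPS and 651 to 1348 against 2175 to 2913 CPM with it, and neither pair of groups overlapped.

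The 4 genes called lower were LPS-responsive genes whose level with LPS was smaller when SR9009 had been given, with a smaller SR9009 effect, or the opposite one, without LPS. Mmp13 (chromosome 9, 7272514 to 7283331), the collagenase of tissue remodelling, held 8.65, 6.69, 2.94 and 5.39 CPM in DMSO and 11.4, 5.19, 6.24 and 8.87 CPM in SR9009. With LPS it stood at 1996, 3295, 1539 and 1787 CPM, and with both agents at 98.0, 287, 298 and 287 CPM. The groups without LPS overlapped and those with LPS were far apart. The SR9009 effect was 0.46 without LPS and -3.09 with LPS, an interaction of -3.55 (SE 0.59, edgeR adjusted p = 0.0459).

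Il1rn, which encodes the interleukin-1 receptor antagonist, a secreted brake on interleukin-1, held 8.56, 11.9, 6.05 and 7.79 CPM in DMSO and 7.67, 6.69, 4.31 and 4.03 CPM in SR9009. With LPS it was 1318, 2306, 2613 and 2944 CPM, and with both agents 167, 341, 278 and 270 CPM. The interaction was -2.56 (SE 0.43, edgeR adjusted p = 0.0459), with SR9009 effects of -0.57 without LPS and -3.14 with it. Without LPS the SR9009 library was the lower one within each mouse, though the ranges overlapped, and the effect was -0.97 in the 15-library fit (adjusted p = 0.0508). Gm5150, a predicted gene on chromosome 3, was 2.53 to 3.46 CPM in DMSO, 1.77 to 2.30 in SR9009 and 14.7 to 29.0 in LPS, and 1.78 to 3.06 CPM with both agents, between the lowest SR9009 and the highest DMSO library. Its interaction was -2.73 (SE 0.35, edgeR adjusted p = 0.0132). Sirpb1a (-2.17), Sirpb1b (-1.40) and Sirpb1c (-1.38), activating receptors of the SIRP family, were called lower in the 15-library fit; they are near-copies of each other whose reads may be split. Pdpn, the mucin-like membrane protein podoplanin, had SR9009 effects of opposite sign, 1.34 without LPS (adjusted p = 0.0155) and -0.71 with LPS (adjusted p = 0.133): 23.8 to 51.8 CPM in SR9009 against 11.8 to 19.5 in DMSO, and 84.2 to 185 CPM with both agents against 204 to 234 with LPS. Neither pair overlapped, and the interaction was -2.06 (SE 0.34, edgeR adjusted p = 0.0459).

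**Figure D3:**
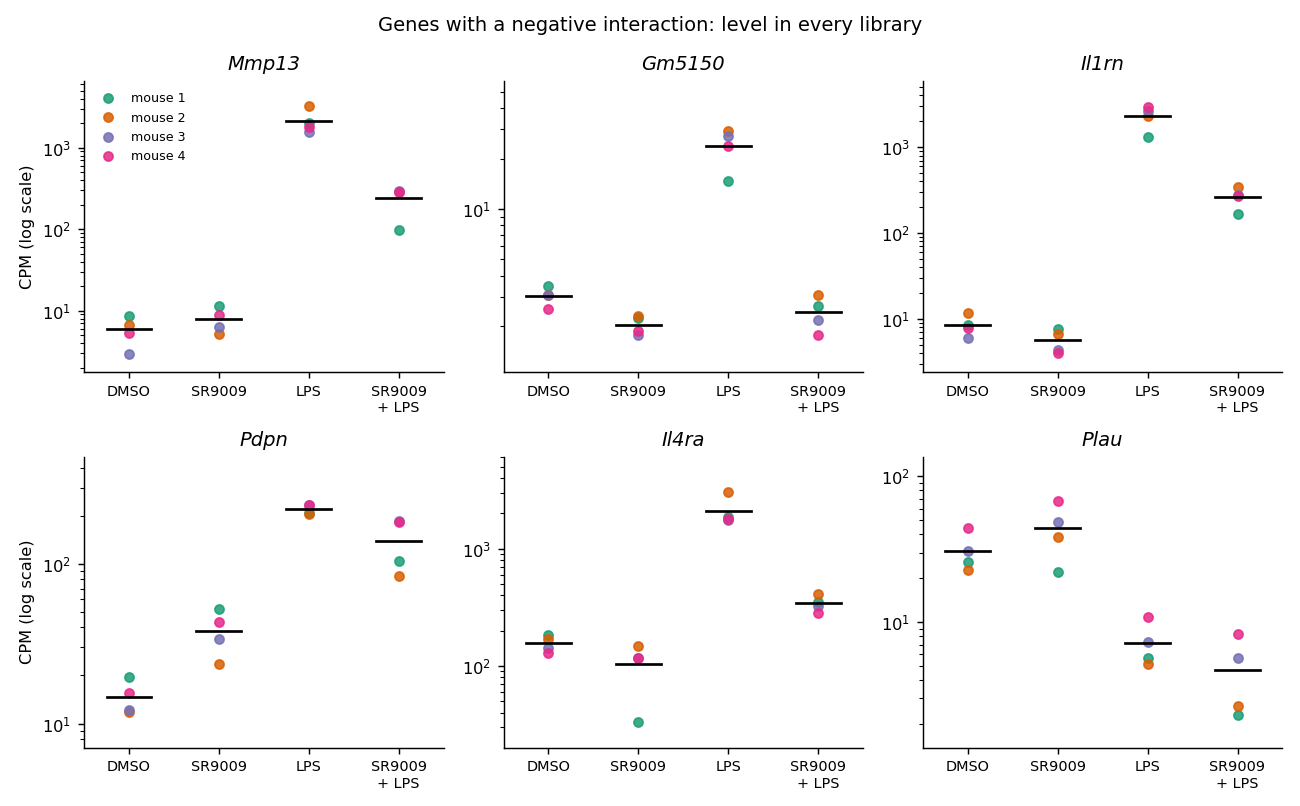
Level of 6 genes with a negative interaction, in CPM on a log axis, by group; points are libraries coloured by mouse and bars are means of 4. Mmp13 and Il1rn have overlapping ranges in DMSO and SR9009, with Il1rn lower in SR9009 within each mouse, and both are lower with both agents than with LPS alone (98.0 to 298 against 1539 to 3295 CPM for Mmp13). Il4ra and Plau were not called by edgeR with all 16 libraries but were called without the SR9009 library of mouse 1. DESeq2 called both lower with all 16.

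Among genes of plasminogen activation and fibrinolysis, 20 of 28 were tested; none was called with 16 libraries by edgeR (3 lower and none higher at an unadjusted p under 0.05) or limma-voom, while DESeq2 called 2 lower, Plau among them. In the 15-library fit edgeR called 2 lower, again with Plau among them. The list's median interaction was -0.36, and -0.20 without that library, against 0.06 and 0.08 over all genes. Plau (urokinase) is the only gene called lower whose level with LPS alone was at least 1 log2 unit below DMSO. It held 25.8, 22.8, 30.9 and 44.2 CPM in DMSO, 22.2, 38.4, 48.7 and 68.1 in SR9009, 5.66, 5.18, 7.27 and 10.8 in LPS and 2.29, 2.65, 5.64 and 8.24 CPM with both agents. SR9009 was above DMSO in mice 2 to 4 and the library with both agents was below LPS in all 4 mice, though the groups overlapped. The interaction was -1.18 (SE 0.31, edgeR adjusted p = 0.212) with 16 libraries and -1.24 (SE 0.24, adjusted p = 0.0283) with 15.

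The other fibrinolytic genes named here were not called by edgeR in either fit. The urokinase receptor gene Plaur had an interaction of -1.64 (SE 0.72, edgeR adjusted p = 0.529); it lay above DMSO with SR9009 in mice 2 to 4 (24.0, 18.7 and 26.6 against 11.9, 8.02 and 10.7 CPM) and below LPS with both agents in each mouse. Serpinb2 (PAI-2), an inhibitor of urokinase that LPS strongly raises in macrophages, had 138, 204, 179 and 155 CPM with LPS and 8.64, 17.9, 16.9 and 22.3 CPM with both agents. Without LPS it was at 0.73, 1.46, 0 and 0 CPM in DMSO and 0, 0.26, 0 and 0 CPM in SR9009. The ratio without LPS therefore rested on very few reads, and the interaction of -0.61 had an SE of 1.94 (adjusted p = 0.941), so edgeR could not tell it from 0 at this depth. The fitted SR9009 effects on Serpinb2 were -2.73 (SE 1.25) without LPS and -3.34 (SE 0.73) with it. On the log2(CPM + 1) scale, where a few reads near 0 count for little, its double difference was -3.06, -2.47, -3.33 and -2.74 in mice 1 to 4. That scale shrinks the effect without LPS towards 0, so these values reflect mainly the effect with LPS. Of 30 alternatives, that on log2(FPKM + 1), where the same holds, called Serpinb2 lower (-3.02, limma adjusted p = 0.00279). The activator gene Plat (-0.42, SE 1.33), the plasminogen receptor gene Plgrkt (-0.55) and the annexin gene Anxa2 (-0.11) had adjusted p values of 0.941, 0.729 and 0.927.

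The 271 genes of the 15-library fit could be sorted by their level with LPS alone. The LPS response and the interaction share libraries, so this is a sorting and not a second test. Of the 163 higher genes, 49 were at least 1 log2 unit above DMSO with LPS alone, and 26 of the 49 were on the interferon list. SR9009 effects of these 49 were below 0 without LPS in all 49, with a median of -2.41, and had a median of -0.21 with LPS. Outside the list they included the p200 family genes Ifi203, Ifi206, Ifi208, Ifi211 and Ifi213, the immunity-related GTPase gene Tgtp2, Slfn1, and Trim30c and Trim30d. Of all tested genes, 16.7% were this far above DMSO.

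A larger share of the higher genes, 90 of 163, were at least 1 log2 unit below DMSO with LPS alone (22.2% of all tested genes). None of the 90 was on the interferon list. That list holds only 49 of the 13645 genes tested, so this count says little. Here the SR9009 effect lay mainly in the LPS condition: its median was -0.05 without LPS and 1.08 with it, and it was above 0 with LPS in 89 of 90. The median LPS response was -2.38 without SR9009 and -1.07 with it, and in 85 of 90 the response with SR9009 kept its sign and was smaller. Ypel3, a gene linked to growth arrest, had the smallest p: 171, 168, 145 and 111 CPM in DMSO, 156, 131 and 99.3 CPM in the SR9009 libraries of mice 2 to 4, 7.99, 8.99, 6.10 and 6.71 CPM in LPS and 29.6, 27.6, 18.1 and 19.9 CPM with both agents. The groups with LPS did not overlap. Its interaction was 1.87 (SE 0.16, edgeR adjusted p = 0.000695); with the SR9009 library of mouse 1, which held 11.9 CPM, it was 2.33 (SE 0.73, adjusted p = 0.334). Others, chosen after their values were seen, were Susd3 (1.93), Bmf (1.69), which encodes a pro-apoptotic BH3-only protein, Sesn1 (1.76), a stress-responsive regulator of mTOR signalling, and the plexin gene Plxnd1 (1.58). Susd3 stood at 3.35 to 6.23 CPM with LPS and 15.5 to 22.1 CPM with both agents, against 89.3 to 102 CPM in DMSO. Lipid genes in this group were Fads1, a fatty acid desaturase (1.07, adjusted p = 0.0291), and Dhcr7, the last enzyme of cholesterol synthesis (1.24, adjusted p = 0.0382).

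Of the 108 genes called lower without that library, 85 were at least 1 log2 unit above DMSO with LPS alone. Their median LPS response was 2.30 without SR9009 and 0.82 with it, and the median SR9009 effect was 0.13 without LPS and -0.93 with LPS. Il4ra, the receptor chain shared by interleukin-4 and interleukin-13, had the smallest p. It held 1869, 3029, 1757 and 1779 CPM with LPS and 352, 410, 327 and 285 CPM with both agents, against 130 to 184 CPM in DMSO and 148, 118 and 118 CPM in the SR9009 libraries of mice 2 to 4. The groups with LPS did not overlap, and the interaction was -2.25 (SE 0.17, edgeR adjusted p = 0.000296). With all 16 libraries it was -1.93 (SE 0.45, adjusted p = 0.159), the SR9009 library of mouse 1 holding 33.5 CPM.

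Signalling and trafficking genes were also among the 85. Rab31, a small GTPase of vesicle traffic, was at 440 to 618 CPM with LPS and 180 to 208 CPM with both agents, which was below the 245 to 271 CPM of DMSO (interaction -1.45, SE 0.15, edgeR adjusted p = 0.00309). Rgl1, an exchange factor for Ral, stood at 539 to 676 CPM with LPS and 165 to 251 CPM with both (-1.45, adjusted p = 0.00316). The semaphorin gene Sema4c (-1.92), the Groucho-family corepressor gene Tle3 (-1.46) and Tmem268 (-1.33) were lower with both agents than with LPS alone in each mouse. Slc7a5, a carrier of large neutral amino acids, and Npy, neuropeptide Y, differed in that SR9009 without LPS was on the opposite side: Slc7a5 was 12.8, 29.4 and 32.7 CPM in the SR9009 libraries of mice 2 to 4 against 6.04, 6.72 and 9.96 in their DMSO libraries (interaction -1.95, adjusted p = 0.00349). Among regulators of inflammation, Stat3 (-0.71, adjusted p = 0.035), the checkpoint ligand gene Cd274 (-0.86, adjusted p = 0.0197) and the clock output gene Nfil3 (-1.25, adjusted p = 0.00852) were called lower. So were 22 genes between the LPS bounds, the low-affinity IgG receptor gene Fcgr3 (-1.30, adjusted p = 0.0222) among them.

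**Figure D4:**
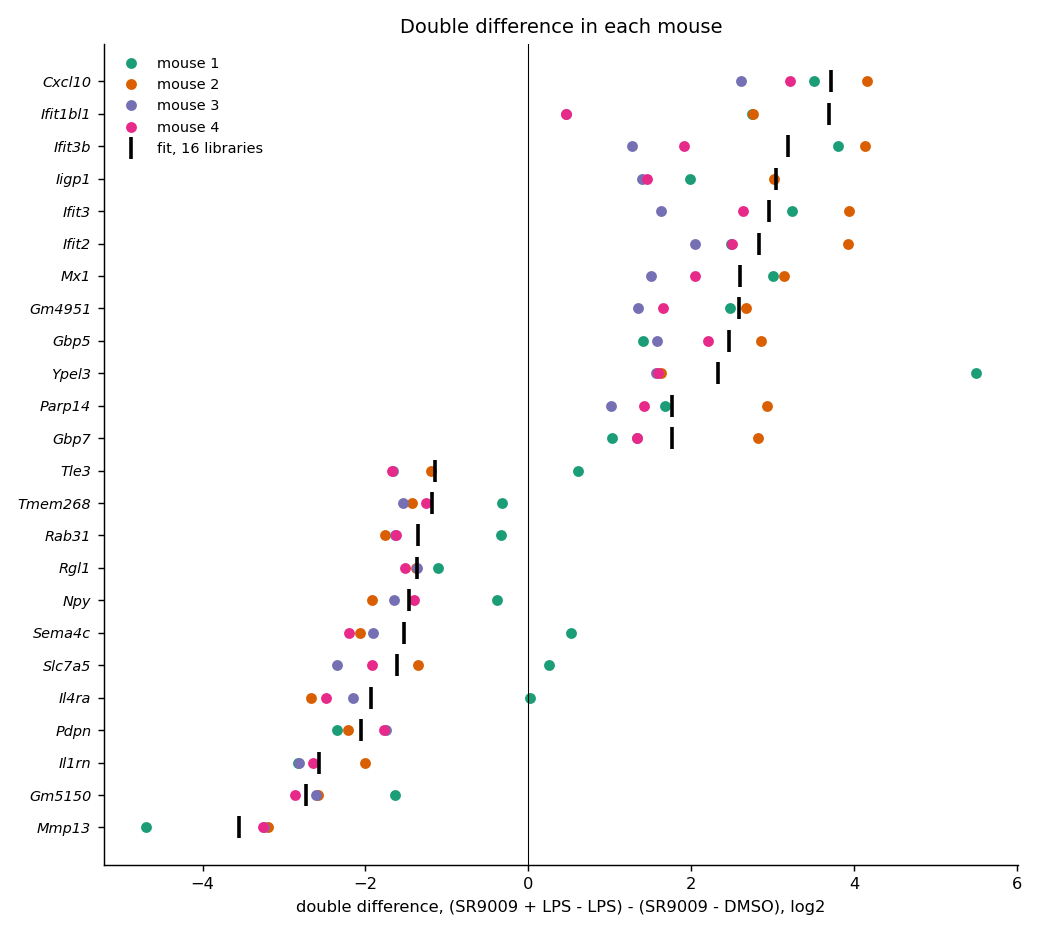
Double difference of log2(CPM + 1) in each mouse (coloured points) and the 16-library fit (black tick) for the 12 genes named in each direction. The 12 upper genes are positive in all 4 mice; among the lower 12, mouse 1 is above 0 for Tle3, Sema4c, Slc7a5 and Il4ra, and Ypel3 in mouse 1 is at 5.50.

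Of the other 25 pathway lists, none had more than 1 gene called by edgeR in either direction with 16 libraries; DESeq2 called most in the list of brakes on Toll-like receptor signalling, 4 lower of 33 (Dusp16, Il1rn, Il4ra and Tollip). In the 15-library fit, where 1.19% of all genes were called higher and 0.791% lower, none of these 25 lists had more than 3 calls. Those with 3 were chemokine and cytokine receptors (none higher and 3 lower of 30: Ccr1, Il4ra and Csf3r), the brakes (1 higher and 2 lower of 33), cytokines (1 higher and 2 lower of 24) and glycolysis and HIF1 targets (1 higher and 2 lower of 31: Pfkfb4 higher, Hk3 and Ndrg1 lower). Before adjustment, 2 higher and 15 lower of the 31 glycolysis genes had a p under 0.05 in that fit, against 1367 and 856 of all 13645 genes. With 16 libraries the lowest medians were those of the unfolded protein and integrated stress response (-0.58, 23 of 30 negative, no call), matrix and metalloproteinases (-0.46, Mmp13 called lower) and glycolysis and HIF1 targets (-0.42, 24 of 31 negative, no call). The highest after the interferon list was that of cell cycle and DNA replication (0.43, 32 of 39 positive, no call). Before adjustment, where 4.84% of all genes were higher and 4.11% lower with a p under 0.05 with 16 libraries, 1 higher and 6 lower genes of the stress response list passed that level, none higher and 6 lower of the glycolysis list, and 1 higher and 2 lower of the cell cycle list. DESeq2 called Mthfd2 of the first list and Pfkfb3 and Ndrg1 of the glycolysis list lower, and no cell cycle gene. NRF2 targets, antioxidant genes, had SR9009 effects with a median of 0.95 without LPS and 1.42 with LPS, and a median interaction of 0.42. With 16 libraries edgeR and limma-voom called none of the 30 tested (before adjustment, 8 higher and 4 lower had an edgeR p under 0.05) and DESeq2 called the iron exporter gene Slc40a1 higher (edgeR 2.66, adjusted p = 0.233). With 15 libraries DESeq2 called 8 higher and 2 lower of 31, and edgeR called 1: the drug exporter gene Abcc1 (0.81, adjusted p = 0.0197), higher. Cholesterol synthesis genes had SR9009 medians of 0.79 and 0.93 and an interaction median of 0.13.

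**Figure D5:**
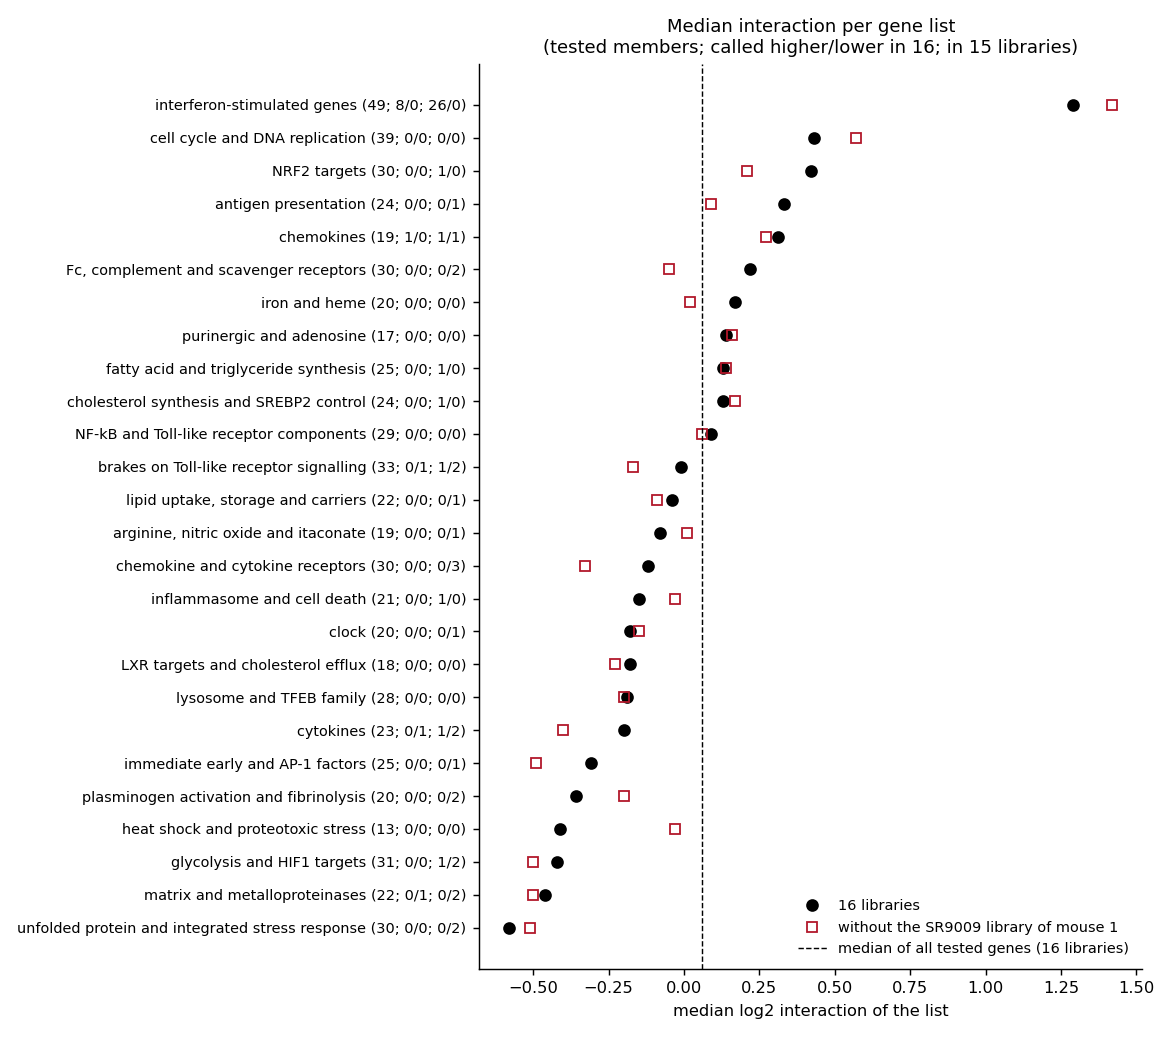
Median log2 interaction of each of the 26 lists, with 16 libraries (filled circles) and 15 (open squares); labels give tested members and genes called higher/lower in each fit, and the dashed line is the median of all tested genes (0.06). The interferon-stimulated list lies at 1.29 and 1.42, and the other 25 lie between -0.58 and 0.57.

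None of the 20 tested clock genes was called with 16 libraries by edgeR (before adjustment, 1 higher and 3 lower had a p under 0.05), DESeq2 or limma-voom, and Nfil3 alone was called, as lower, with 15 libraries. The target receptors of SR9009 had interactions of -0.55 (Nr1d1, SE 0.65, edgeR adjusted p = 0.835) and -0.19 (Nr1d2, SE 0.38, adjusted p = 0.903), and Arntl, a known REV-ERB target, 0.33 (SE 0.33, adjusted p = 0.805). The inflammatory genes named for reference did not pass either: Tnf had 0.75 (SE 0.88), Il6 -1.58 (SE 1.72), Il1b -1.95 (SE 1.83) and Nos2 0.41 (SE 0.69). Il1b differed between mice. With both agents it was 28.3 and 71.3 CPM in mice 1 and 2 against 433 and 599 CPM with LPS, and 435 and 522 CPM in mice 3 and 4 against 1168 and 1273 CPM. Its DMSO level was 7.05 and 7.15 CPM in mice 1 and 2 and 1.00 and 0.82 in mice 3 and 4.

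Markers of macrophages, all 10 tested, summed to 7910 to 11900 CPM in DMSO, 11700 to 12800 in LPS, 6290 to 9630 in SR9009 and 11200 to 11800 CPM with both agents, and none had a call. The neutrophil list moved with the genes called lower: its sum was 47.3 to 116 CPM in DMSO, 337 to 500 in LPS, 20.3 to 88.1 in SR9009 and 90.4 to 163 CPM with both agents. It consisted mainly of Csf3r (mean 409 CPM with LPS and 128 with both), also expressed by macrophages and called lower without the SR9009 library of mouse 1, and 2 of its 10 markers passed the filter. B cell markers summed to 185 to 226 CPM in DMSO, 19.4 to 57.0 in LPS, 53.8 to 108 in SR9009 and 12.3 to 54.3 with both, mainly Ighm. Of the other 8 lists, endothelial markers were highest in the groups with LPS, mainly Kdr (138 CPM with LPS). They summed to 108 to 200 CPM in LPS and 103 to 198 with both agents. Without LPS the osteoclast markers were highest, at 97.1 to 111 CPM in DMSO and 88.2 to 110 in SR9009, mainly Nfatc1. Endothelial markers then summed to 29.1 to 39.7 CPM in DMSO and 9.20 to 70 in SR9009. No marker other than Csf3r had a call in either fit, and the part of other cell types in the results was not tested. In bulk RNA, fewer cells of a type and less RNA per cell cannot be told apart.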

How the data were processed

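The deposited gene table holds raw counts per gene for 16 libraries. The authors also deposited FPKM values per library, used here in 2 alternatives. The submitters' processing notes name HISAT2, an aligner, and the GRCm39 (mm39) genome. Which program and annotation gave the counts, and whether strand was used, is not stated there or in the labels. From the counts, genes were kept by edgeR's filterByExpr (minimum count 10, minimum total 15), scaled by TMM (factors 0.738 to 1.257) and fitted with edgeR 4.0.16 (R 4.3.3; robust quasi-likelihood, group and mouse as factors, 9 residual degrees of freedom, 8 with 15 libraries). P-values were adjusted by Benjamini-Hochberg over all tested genes, with a threshold of 0.05. CPM used TMM-scaled library sizes, and the double difference per mouse used log2(CPM + 1). Total counts were 12616442 to 24214863 per library. The fit was also run on counts simulated from the fitted means and spread of these libraries. Such counts cannot show how the fit handles a library that stands apart.

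Each mouse gave 1 library to every group, so the mouse is a block: deviations from group means correlated positively in 24 of 24 same-mouse pairs (median 0.298) and in 23 of 72 pairs of different mice (median -0.0859). The block takes out the overall level of each mouse. P-values measure the remaining spread of the treatment effects over these 4 mice, moderated across genes. Each mouse gave 1 culture per group, so variation between mice and between cultures cannot be told apart in it.

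Members and gene lists were chosen with earlier results of these data known. Genes named are the protein-coding calls of the 16-library fit (at least 1 CPM in a group, the fitted sign in at least 3 of 4 mice), filled to 12 per direction from the 15-library fit by p, up to 3 per list by p, and 10 reference genes, with a few of these left out of the text. Alternatives used DESeq2 1.42.0, limma 3.58.1 (voom and log2 FPKM), other scalings and filters, a gene length correction and left-out libraries. Motifs were searched with Python 3.11.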

Additional observations from a re-analysis of the deposited data

Results flagged for a closer look

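The 15 genes whose SR9009 effect differed with LPS by the interaction test of edgeR were Cxcl10 (3.72), Ifit1bl1 (3.70), Ifit3b (3.19), Iigp1 (3.04), Ifit3 (2.95), Ifit2 (2.83), Mx1 (2.60), Gm4951 (2.58), Gbp5 (2.46), Gm12250 (2.17) and Parp14 (1.77) as higher, and Mmp13 (-3.55), Gm5150 (-2.73), Il1rn (-2.56) and Pdpn (-2.06) as lower.

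A sample far from the other 3 of its group was looked for in the named genes; chance gives this in about 1 in 20 groups of 4. Of 98 sets of double differences per mouse, 11 had 1 such mouse. Mouse 1 stood apart for Mmp13 (-4.70), Rab31 (-0.341), Msr1 (-2.63), Arg2 (-0.466), Abcc1 (1.77), Ypel3 (5.50), Mmp19 (-0.0115), Sema4c (0.521), Tlr5 (1.96) and Lamp2 (-1.90), and mouse 2 for Gbp7 (2.82). Of 136 groups of CPM values, 9 had such a library. In 4 it was the SR9009 library of mouse 1, with Sema4c at 0.836, Tle3 at 21.1, Arntl at 36.2 and Nr1d2 at 174.8 CPM. The other 5 were Mmp13 at 97.95 CPM in SR9009 with LPS of mouse 1, Il4ra at 3029 CPM in LPS of mouse 2, Tle3 at 257 CPM in SR9009 with LPS of mouse 2, and, in the SR9009 library of mouse 2, Il6 at 0.110 and Serpinb2 at 0.256 CPM, where the other 3 libraries held 0.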

How the results depend on the processing

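With 16 libraries the genes called were 0 higher and 1 lower with no replicate block, 8 and 1 with relative log expression scaling, 112 and 88 with DESeq2, 11 and 2 with limma-voom, 21 and 49 on log2(FPKM + 1), 14 and 19 on log2(FPKM + 0.1) and 11 and 11 with the gene length correction. That correction moved the median of all genes from 0.06 to -0.04. Leaving out 1 mouse or 1 library gave 0 to 163 higher and 0 to 108 lower. The 15 genes called with 16 libraries kept their sign in every one of these settings. With 15 libraries the genes called were 17 higher and 24 lower with no replicate block and 421 and 362 with DESeq2, and 0 to 19 higher and 0 to 16 lower with mouse 2, 3 or 4 also left out; those 15-library alternatives other than the block were chosen after seeing the data. The pairing changed the sign of no call. The response element was in 8.7% of windows of the higher genes when searched on the gene strand only, against 3.8% of all windows. Signs reversed only for genes that edgeR did not call with 16 libraries: Serpinb2 (called lower on log2(FPKM + 1), -3.02) with DESeq2 (0.03), Lpin1 (-0.05), Cxcl9 (-0.90) and Nos2 (-0.71) on log2(FPKM + 1), and Nos2 (-0.20) on log2(FPKM + 0.1). With a mouse or library left out, Il6 ran from -2.64 to 1.38, Nr1d1 from -0.83 to 0, Nr1d2 from -0.40 to 0.28, Nos2 from -0.05 to 1.25 and Serpinb2 from -1.65 to 2.61. The cause of these changes was not tested. Depth limits genes near 0 CPM without LPS (Serpinb2, Il6, Ifnb1), whose SR9009 ratio without LPS rests on a few reads. Among the genes called higher, the 4 SR9009 libraries together held 28 reads of Ifit1bl1 and 75 of Iigp1. Over the 30 alternatives the Ifit1bl1 interaction ran from 0.77 to 4.1 and was called in 17. That of Iigp1 ran from 0.63 to 3.33 and was called in 25. On the log2(CPM + 1) scale, which shrinks effects near 0 CPM, the Ifit1bl1 double difference was 2.75, 2.76, 0.459 and 0.467 in mice 1 to 4.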
